A study of Mus musculus with 7 samples.

Results

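The genes described here were 10 that mark blood or lymphatic endothelium or that direct vessel growth, read in RNA-seq data of mouse skin papillomas: *Pecam1*, *Cdh5*, *Kdr*, *Flt1*, *Tek*, *Vegfa*, *Angpt2*, *Lyve1*, *Flt4* and *Prox1*. They were picked out of the files by symbol, and all 10 were among the 23122 gene symbols with a value in every papilloma. The study compared papillomas of 4 control (CTR) mice with papillomas of 3 transgenic (TG) mice, all different animals of C57Bl/6 background that had gone through the DMBA/TPA skin protocol, a carcinogen (DMBA) followed by a tumor promoter (TPA). Mice of both groups carried the *tetO-Nanog* allele, a *Nanog* cDNA inserted downstream of *Col1a1*, and both groups drank doxycycline at 2 mg/ml during the whole protocol. Only TG mice carried the *K5-rtTA* transactivator, which the K5 promoter drives in keratinocytes, so the transgene was not directed at endothelial cells. The values are FPKM, in which fragments are scaled to the length of the transcript and the size of the library, so levels can be compared between genes.

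Blood vessels grow when the ligand VEGFA binds the receptors KDR (VEGFR2) and FLT1 (VEGFR1) on endothelial cells, while angiopoietins act through the receptor TEK (TIE2) and set how stable a vessel is. PECAM1 and CDH5 (VE-cadherin) hold endothelial cells together. Lymphatic vessels grow through FLT4 (VEGFR3), take their identity from the transcription factor PROX1 and carry the hyaluronan receptor LYVE1. In skin papillomas the vessels run in the stroma, while keratinocytes are a known source of VEGFA.

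The libraries were not alike in depth or make-up. The files imply between 10074859 and 15710562 reads on genes, and CTR 3 and TG 1 were the deepest. TG 3 stood apart. Its correlation with the other papillomas across 12299 genes was 0.903 to 0.937, against 0.945 to 0.977 among the others, a description across genes, which do not act as replicates. *Nanog* was 5.41 ± 4.9 FPKM (SD, n = 4) in CTR and 53.7 ± 15.3 FPKM (SD, n = 3) in TG papillomas, without overlap. The keratinocyte keratin *Krt14* lay between 4717 and 10937 FPKM over the 7 papillomas, so this marker of the labelled skin tissue was present in each.

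By mean level over the 7 papillomas, the 10 genes ran from *Vegfa* at 34.99 FPKM through *Pecam1* at 4.73 and *Cdh5* at 2.74 to *Kdr* at 1.34 and *Angpt2* at 1.20. *Flt1* at 0.956, *Lyve1* at 0.907, *Tek* at 0.445 and *Flt4* at 0.392 FPKM followed, and *Prox1* was last at 0.0135. *Vegfa* exceeded *Pecam1*, and *Pecam1* exceeded *Cdh5*, in 7 of 7 papillomas, as did *Cdh5* over *Kdr*, *Lyve1* over *Tek* and *Flt4* over *Prox1*. Neighbors in the middle of the order were not separated beyond the spread of the papillomas, since *Kdr* exceeded *Angpt2* in 5, *Angpt2* exceeded *Flt1* in 5, *Flt1* exceeded *Lyve1* in 5 and *Tek* exceeded *Flt4* in 3.

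The groups were compared with limma on log2(FPKM + 0.5), a scale that understates differences of genes with low FPKM, with Benjamini-Hochberg adjustment over the 12299 genes whose mean reached 0.5 FPKM. *Tek*, *Flt4* and *Prox1* fell below that mean, so 7 of the 10 genes entered the fit. None of the 7 passed an adjusted p of 0.05, where the background was 0% of tested genes in either direction. *Nanog*, which did not overlap between the groups, did not pass either (adjusted p = 0.400 from limma). At an unadjusted p under 0.05, 3 of the 7 were higher in TG papillomas (*Pecam1*, *Flt1* and *Lyve1*), against 4.86% of the tested genes, and 0 were lower, against 1.96%. In 4 of the 10 genes (*Pecam1*, *Flt1*, *Tek* and *Lyve1*) every TG papilloma exceeded every CTR papilloma, as 4.93% of the tested genes and 5% of the 19124 genes with any value above 0 did. In 0 of the 10 was every TG papilloma below every CTR papilloma, which held for 2.23% of the tested genes and 1.69% of those above 0. The median difference over the 10 genes was 0.58 on the log2 scale, against 0.06 over the tested genes. Each gene was also compared by a 2-sided exact permutation test of the group labels, whose smallest possible p over the 35 splits is 0.0286.

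**Figure D1:**
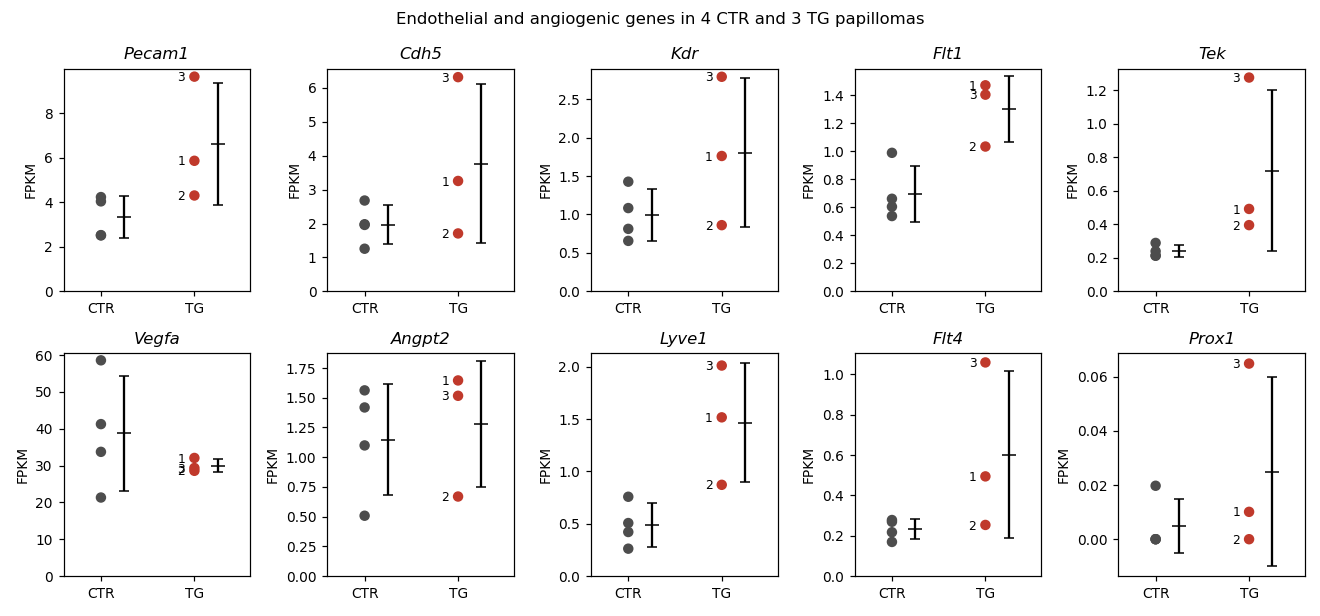
FPKM of the 10 genes in the 4 CTR papillomas (grey points) and the 3 TG papillomas (red points, numbered), each gene on its own linear axis, with bars for the mean and SD of each group. The TG points of *Pecam1*, *Flt1*, *Tek* and *Lyve1* sit above all CTR points, while *Vegfa* is highest in CTR 1 at 58.6 FPKM.

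Both junction genes were highest in TG 3 and next highest in TG 1. *Pecam1*, on chromosome 11 from 106654218 to 106715281 (GRCm38), was 2.52, 4.04, 2.51 and 4.23 FPKM in CTR 1 to CTR 4, and 5.86, 4.30 and 9.64 FPKM in TG 1 to TG 3. The groups did not overlap, but TG 2 lay just above CTR 4, and the Cufflinks interval of TG 2 (from 3.72) reached below that of CTR 4 (up to 4.81). Group means were 3.32 ± 0.938 FPKM (SD, n = 4) and 6.60 ± 2.74 FPKM (SD, n = 3), 0.86 apart on the log2 scale (standard error 0.29, adjusted p = 0.687 from limma, exact permutation p = 0.0286).

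*Cdh5*, on chromosome 8 from 104101625 to 104144502, was 1.98, 1.96, 1.26 and 2.68 FPKM in CTR 1 to CTR 4, and 3.26, 1.71 and 6.32 in TG 1 to TG 3. TG 1 and TG 3 exceeded all CTR papillomas, and TG 2 lay below 3 of them, so the groups overlapped. The means of 1.97 ± 0.581 (SD, n = 4) and 3.76 ± 2.35 FPKM (SD, n = 3) differed by 0.67 on the log2 scale (standard error 0.37, adjusted p = 0.820 from limma, exact permutation p = 0.200).

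The receptor genes followed the same order of papillomas in part. *Kdr*, on chromosome 5 from 75933270 to 75978428, was 0.812, 1.08, 0.656 and 1.43 FPKM in CTR 1 to CTR 4, and 1.76, 0.861 and 2.79 in TG 1 to TG 3. As with *Cdh5*, TG 1 and TG 3 were above the CTR papillomas and TG 2 was among them. The groups differed by 0.56 on the log2 scale (limma standard error 0.33 and adjusted p = 0.826, exact permutation p = 0.171).

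*Flt1*, on chromosome 5 from 147562196 to 147725988, encodes a receptor that binds VEGFA tightly and in its soluble form holds it back. It was 0.603, 0.660, 0.537 and 0.988 FPKM in CTR 1 to CTR 4, and 1.47, 1.03 and 1.40 in TG 1 to TG 3. Here TG 1 was the highest papilloma, the groups did not overlap, and the 2 nearest values, TG 2 and CTR 4, had overlapping Cufflinks intervals (from 0.828 in TG 2, up to 1.19 in CTR 4). Group means of *Flt1* were 0.697 ± 0.200 FPKM (SD, n = 4) and 1.301 ± 0.235 FPKM (SD, n = 3), 0.60 apart on the log2 scale (standard error 0.23, adjusted p = 0.702 from limma, exact permutation p = 0.0571).

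*Tek*, on chromosome 4 from 94739300 to 94874939, was 0.289, 0.239, 0.212 and 0.214 FPKM in CTR 1 to CTR 4, and 0.492, 0.395 and 1.28 in TG 1 to TG 3. These values rest on 17 to 24 implied reads in CTR papillomas and on 55, 33 and 96 in the TG papillomas. The groups did not overlap, and the intervals of CTR 1 (up to 0.406) and TG 2 (from 0.257) did. The log2 difference of 0.66 had an exact permutation p of 0.0286. Without TG 3 it was 0.35, with a permutation p of 0.0667, the smallest that 4 against 2 allows. With a pseudocount of 0.1 the difference over all papillomas was 1.13.

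The promoters of these 3 receptors are shown with that of the ligand *Vegfa*, because the receptors varied together across the papillomas and *Vegfa* did not vary with them. They are the 250 bases before the RefSeq start (GRCm38.p6), written 5′ to 3′ on the strand of the gene. Capitals mark GGAAG, a longer form of the core bound by ETS factors, and its reverse complement CTTCC. The windows are chr5:75978456-75978705 on the minus strand for *Kdr*, chr5:147726012-147726261 on the minus strand for *Flt1*, chr4:94739039-94739288 on the plus strand for *Tek* and chr17:46032378-46032627 on the minus strand for *Vegfa*.
Kdr: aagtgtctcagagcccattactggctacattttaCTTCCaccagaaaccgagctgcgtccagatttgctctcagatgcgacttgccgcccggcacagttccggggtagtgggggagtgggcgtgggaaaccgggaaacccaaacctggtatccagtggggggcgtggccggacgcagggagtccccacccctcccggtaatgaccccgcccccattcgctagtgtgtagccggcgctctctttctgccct
Flt1: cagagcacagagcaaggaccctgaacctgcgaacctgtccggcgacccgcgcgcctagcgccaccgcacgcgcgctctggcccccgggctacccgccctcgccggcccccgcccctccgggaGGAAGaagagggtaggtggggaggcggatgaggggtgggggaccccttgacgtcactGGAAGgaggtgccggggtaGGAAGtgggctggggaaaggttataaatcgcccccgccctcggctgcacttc
Tek: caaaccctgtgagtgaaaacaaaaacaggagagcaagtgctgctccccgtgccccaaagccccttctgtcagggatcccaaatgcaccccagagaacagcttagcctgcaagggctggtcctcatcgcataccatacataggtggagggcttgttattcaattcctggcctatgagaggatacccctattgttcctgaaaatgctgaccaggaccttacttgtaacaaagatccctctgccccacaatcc
Vegfa: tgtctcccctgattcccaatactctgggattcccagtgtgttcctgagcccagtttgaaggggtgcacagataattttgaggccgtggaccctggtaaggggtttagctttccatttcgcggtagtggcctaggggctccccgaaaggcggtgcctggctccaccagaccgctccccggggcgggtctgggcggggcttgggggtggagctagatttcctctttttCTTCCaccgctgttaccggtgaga

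Promoter entries were matched for 6 of the 10 genes, the other 2 being *Flt4* and *Prox1*. *Pecam1*, *Cdh5*, *Angpt2* and *Lyve1* were not matched. GGAAG, on either strand, stood 3 times in the *Flt1* window and once each in those of *Kdr*, *Vegfa*, *Flt4* and *Prox1*. It did not stand in that of *Tek*, and 64.06% of 32817 promoters of the same length hold it. The shorter core GGAA was not counted, and its reverse complement TTCC stands unmarked in the *Tek* window. ACGTG, a form of the core of a hypoxia response element, stood in 0 of the 6 windows, against 16.57% of promoters. The other form, GCGTG, was not counted, and it or its reverse complement stands in the *Kdr* and *Flt1* windows. The GC box GGGCGG stood in 5 of the 6, with *Tek* again the exception, against 32.72% of promoters. GATAA stood in the *Vegfa* window alone, against 22.59%. A match describes letters and not a bound site, and its absence says only that the letters are not in this window.

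The VEGF ligand did not share the order of the receptors. *Vegfa*, on chromosome 17 from 46016993 to 46032377, was 58.6, 21.3, 33.7 and 41.3 FPKM in CTR 1 to CTR 4, and 32.1, 28.6 and 29.4 FPKM in TG 1 to TG 3. The 3 TG papillomas lay close together within the wide CTR range. Group means of *Vegfa* were 38.7 ± 15.6 FPKM (SD, n = 4) and 30.01 ± 1.83 FPKM (SD, n = 3), and TG minus CTR was -0.27 on the log2 scale (limma standard error 0.30 and adjusted p = 0.920, exact permutation p = 0.514).

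*Angpt2*, on chromosome 8 from 18691337 to 18741551, encodes the angiopoietin that endothelial cells themselves release when vessels remodel. It was 1.56, 1.10, 0.508 and 1.42 FPKM in CTR 1 to CTR 4, and 1.65, 0.669 and 1.52 in TG 1 to TG 3. The groups covered nearly the same range, with the lowest values in CTR 3 and TG 2. Its log2 difference of 0.11 (limma standard error 0.33 and adjusted p = 0.981, exact permutation p = 0.686) was smaller than its error. It turned to -0.07 after quantile normalization, to -0.11 without CTR 3, to -0.05 without TG 1 and to -0.00457 without TG 3.

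Among the lymphatic genes, *Lyve1*, on chromosome 7 from 110850607 to 110862953, had the largest log2 difference of the 10. It was 0.422, 0.263, 0.507 and 0.759 FPKM in CTR 1 to CTR 4, and 1.52, 0.873 and 2.01 in TG 1 to TG 3, from 13 to 31 implied reads in CTR and 36 to 93 in TG papillomas. All TG papillomas were above all CTR papillomas, although the intervals of TG 2 (from 0.582) and CTR 4 (up to 1.03) overlapped. Means of 0.488 ± 0.207 FPKM (SD, n = 4) and 1.47 ± 0.571 FPKM (SD, n = 3) differed by 0.97 on the log2 scale (standard error 0.29, adjusted p = 0.607 from limma, exact permutation p = 0.0286). LYVE1 is also carried by some tissue macrophages, and their part in these values was not tested.

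*Flt4*, on chromosome 11 from 49609679 to 49652739, was 0.170, 0.278, 0.218 and 0.269 FPKM in CTR 1 to CTR 4, and 0.494, 0.254 and 1.06 in TG 1 to TG 3. TG 2 was among the CTR papillomas, so the groups overlapped (log2 difference 0.52, exact permutation p = 0.0857, and 0.92 with a pseudocount of 0.1). *Prox1*, on chromosome 1 from 190121777 to 190170680, was at 0 in CTR 1, CTR 2, CTR 4 and TG 2. It was 0.0197 FPKM in CTR 3, 0.0101 in TG 1 and 0.0649 in TG 3, which correspond to 2, 1 and 4 implied reads. A count of 0 allows up to 3 reads, or 0.0296 to 0.0522 FPKM depending on the papilloma, for counting error only, so only TG 3 was above this limit and no difference between the groups was detectable at this depth.

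**Figure D2:**
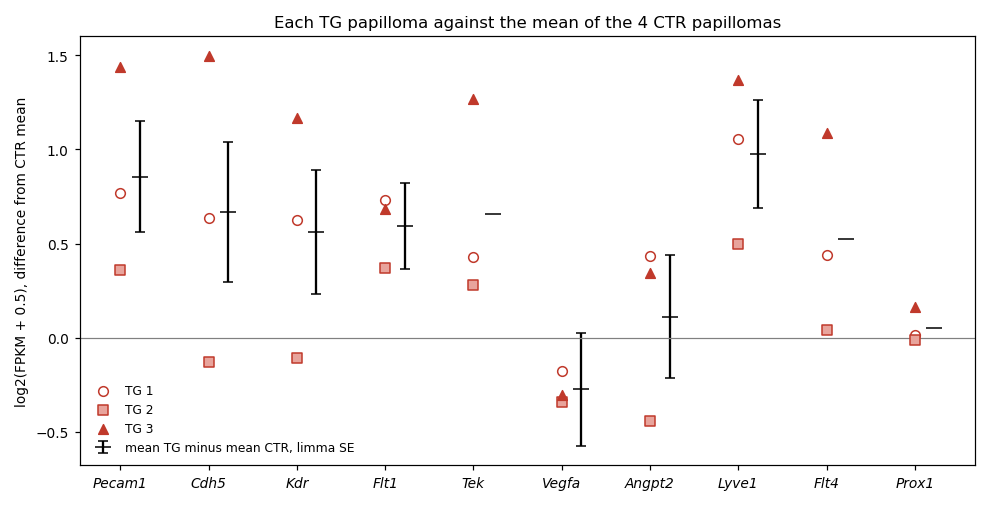
Log2 difference of each TG papilloma from the CTR mean for the 10 genes, on the log2(FPKM + 0.5) scale, with a dash for the mean of the 3 and bars of 1 limma standard error for the 7 tested genes. The TG 3 difference reaches 1.498 for *Cdh5*, where TG 2 is at -0.13, and the 3 TG values of *Vegfa* lie between -0.34 and -0.18.

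Set side by side, the 3 TG papillomas were unlike each other in these genes. TG 3 held the highest value in 7 of the 10, TG 1 in 2 (*Flt1* and *Angpt2*) and CTR 1 in 1 (*Vegfa*), while TG 3 was highest in 41.1%, TG 1 in 12.9% and TG 2 in 10% of the tested genes. Both TG 1 and TG 3 exceeded all CTR papillomas in 7 of the 10, against 9.85% of the tested genes and 10.2% of those above 0. The median log2 difference from the CTR mean over the 10 genes was 0.53 for TG 1, 0.01 for TG 2 and 1.13 for TG 3. Over the tested genes those medians were -0.03, -0.02 and 0.24.

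In bulk tissue such as this, more endothelial cells and more RNA per endothelial cell cannot be told apart. The log2 ratio of each gene to *Cdh5*, an endothelial reference, was therefore described in each papilloma, with no test. Against *Cdh5* the differences between the group means were small for *Pecam1* (0.19), *Kdr* (-0.11), *Flt1* (-0.07), *Tek* (-0.01) and *Flt4* (-0.14), all with overlapping groups. With a pseudocount of 0.1 the difference was 0.37 for *Tek*, 0.07 for *Flt1* and 0.16 for *Flt4*, so the sign of these 3 depended on the pseudocount. For *Flt1*, TG 2 lay above and TG 3 below all CTR ratios. Its ratio was -1.17, -1.08, -0.76 and -1.10 in CTR 1 to CTR 4, and -0.93, -0.53 and -1.84 in TG 1 to TG 3. The ratio of *Lyve1* was -1.31 ± 0.373 (SD, n = 4) in CTR and -1.01 ± 0.390 (SD, n = 3) in TG papillomas, also overlapping. The *Lyve1* difference of 0.31 was 0.65 with a pseudocount of 0.1 and 0.13 with a pseudocount of 1. In 0 of the 9 was the ratio of every TG papilloma above that of every CTR papilloma, against 0.0407% of the tested genes.

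*Angpt2* was the only one of the 9 in which every TG ratio was below every CTR ratio, which held for 4.96% of the tested genes. Its ratio was -0.27, -0.62, -0.80 and -0.73 in CTR 1 to CTR 4, and -0.81, -0.92 and -1.76 in TG 1 to TG 3. TG 1 lay just below CTR 3, and with a pseudocount of 0.1 in place of 0.5 the groups overlapped. The *Vegfa* ratio was 3.93 ± 0.631 (SD, n = 4) in CTR and 2.99 ± 0.803 (SD, n = 3) in TG papillomas, a difference of -0.94 with overlap.

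**Figure D3:**
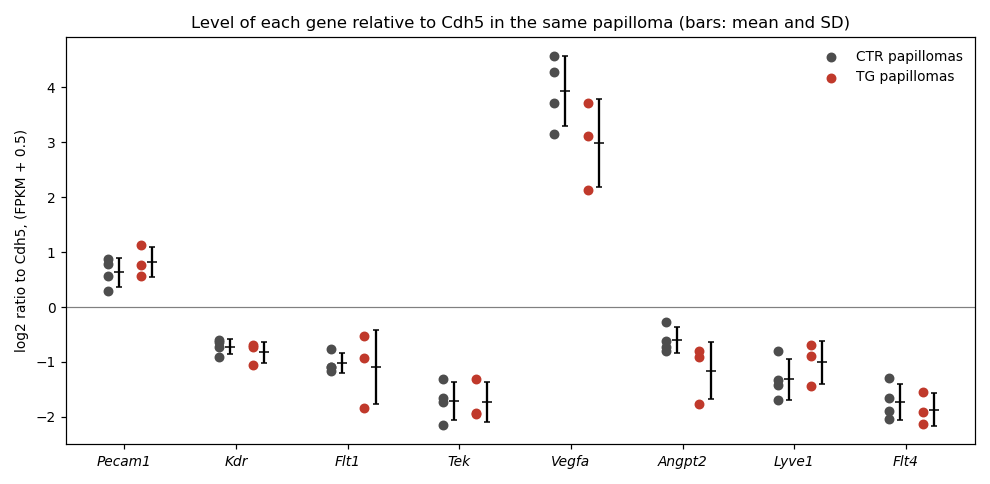
Log2 ratio of 8 genes to *Cdh5* in each CTR (grey) and TG (red) papilloma, with 0.5 added to both FPKM values and bars for mean and SD (*Prox1* is not drawn). The *Angpt2* points of TG papillomas (-1.76 to -0.81) lie below those of CTR papillomas (-0.80 to -0.27), and the groups overlap for the other 7 genes.

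*Pecam1*, *Cdh5*, *Kdr*, *Flt1* and *Tek* varied together. The 10 correlations between pairs of them were 0.722 to 0.981 over the 7 papillomas, and 0.446 to 0.959 over the 6 without TG 3. *Vegfa* correlated with the 9 other genes at -0.436 to 0.321, with 1 of 9 above zero. *Angpt2* lay between, at 0.705 with *Cdh5* (0.862 without TG 3), 0.664 with *Kdr* (0.714), 0.492 with *Flt1* (0.413), 0.459 with *Pecam1* (0.375) and 0.376 with *Tek* (0.270). These are descriptions over papillomas that share library, depth and group. The mean of the 5 genes, each centered on its own mean, was -0.37, -0.21, -0.56 and -0.00416 on the log2 scale in CTR 1 to CTR 4, and 0.35, -0.13 and 0.92 in TG 1 to TG 3.

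The tested gene with the pattern most like that mean was *Gpr116*, an adhesion receptor found on endothelium among other cells, with a Pearson correlation of 0.989 over 7 papillomas and 0.975 over 6 without TG 3. *Plxnd1*, a semaphorin receptor of endothelium, followed at 0.980 (0.942 without TG 3), with *Prrx2* at 0.980 (0.970) and *Nid1*, a basement membrane protein, at 0.980 (0.937). *Synpo* at 0.979, *Man1c1* at 0.977, *Nid2*, the other nidogen, at 0.973 and *Rtn3* at 0.973 came next. None of these genes was in the list of further vascular endothelial markers read below. The genes most like *Vegfa* were *Gm10516* at 0.971, the chromosome kinesin gene *Kif4* at 0.970, *Fut1* at 0.956, the cell-cycle transcription factor gene *Mybl2* at 0.946 and the cytokinesis kinesin gene *Kif14* at 0.942.

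Further vascular endothelial markers were read as a check of the label. Of 26 such genes, 22 were tested and 0 passed an adjusted p of 0.05. At an unadjusted p under 0.05, 8 of the 22 were higher in TG papillomas and 1 was lower, against 4.86% and 1.96% of the tested genes. The median log2 difference was 0.53 (0.36 without TG 3, 0.83 without TG 2), with 25 genes higher in the TG mean and 1 lower. In 4 of the 26 all TG papillomas exceeded all CTR papillomas, against 5% of the genes above 0. These were *Cldn5*, a tight junction gene, *Sox17*, a transcription factor gene, *Ptprb*, a phosphatase gene, and *Ramp2*, part of the adrenomedullin receptor. They were named after their values were seen, and their levels were low. *Cldn5* was 0.16 to 0.74 FPKM in CTR and 1.04 to 1.33 in TG papillomas. *Sox17*, which was not tested, was 0.17 to 0.24 and 0.47 to 0.62 FPKM. *Ptprb* was 0.29 to 0.49 and 0.55 to 1.65 FPKM, and *Ramp2* 1.12 to 1.66 and 1.72 to 4.74 FPKM. TG 1 and TG 3 exceeded all CTR papillomas in 20 of the 26, against 10.2% of the genes above 0. In 16 of these 20 TG 2 did not, against 605 of the 1211 tested genes in which TG 1 and TG 3 exceeded all CTR papillomas.

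*Plvap*, the diaphragm protein of fenestrated endothelium, was 4.69 to 9.20 FPKM in CTR papillomas, and 14.96, 8.34 and 13.7 in TG 1 to TG 3 (log2 difference 0.76, adjusted p = 0.702 from limma). *Egfl7*, a secreted endothelial protein, was 3.39 to 6.98 FPKM in CTR papillomas, and 10.3, 5.47 and 8.99 in TG 1 to TG 3 (log2 difference 0.58, adjusted p = 0.784 from limma). In both, TG 1 was highest and TG 2 was within the CTR range. *Cd34* went the other way. It was 27.2 to 31.8 FPKM in CTR papillomas, and 15.8, 11.9 and 25.3 in TG 1 to TG 3 (log2 difference -0.79, adjusted p = 0.633 from limma). *Cd34* was the 1 gene of the list with every TG papilloma below every CTR papilloma, which held for 1.69% of the genes above 0. CD34 is found on endothelium, and in skin also on hair follicle stem cells and stromal cells.

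**Figure D4:**
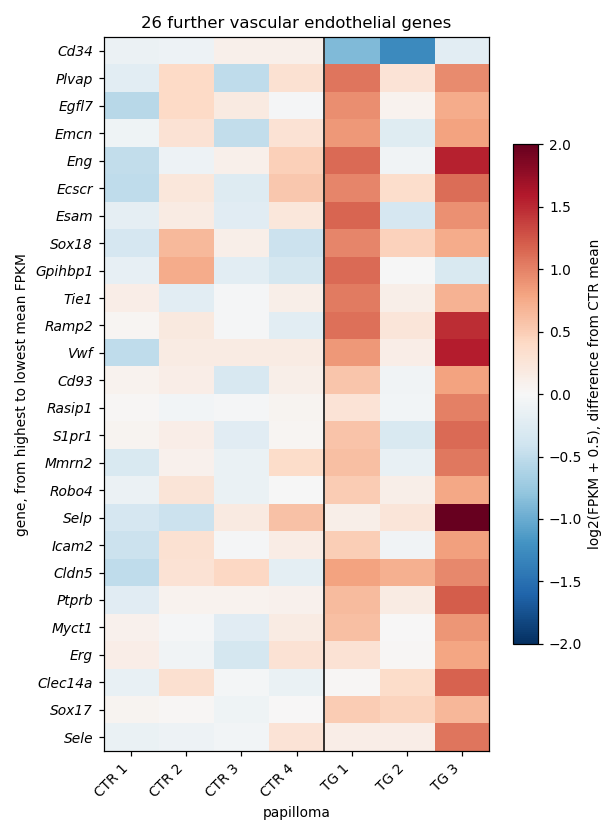
Heat map of the 26 further vascular endothelial markers (rows, from highest to lowest mean FPKM) in the 7 papillomas (columns), colored by the difference from the CTR mean on the log2(FPKM + 0.5) scale, red for higher and blue for lower. The list median is 0.62, 0.09 and 0.93 in TG 1 to TG 3, and *Cd34* is the only gene lower in the TG mean.

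A list of 22 genes of the VEGF and angiopoietin pathway, which shares *Tie1* with the vascular markers, had 18 tested genes, of which 0 passed the adjusted threshold. At an unadjusted p under 0.05, 2 of the 18 were higher and 0 lower, against 4.86% and 1.96% of the tested genes. These 2, named after their values were seen, were *Tie1*, the partner receptor of TEK, at 1.38 to 1.88 FPKM in CTR and 3.98, 1.87 and 3.03 in TG 1 to TG 3, and *Pdgfb*, the ligand that draws pericytes to vessels, at 1.01 to 3.63 FPKM in CTR and 4.09, 2.80 and 3.67 in TG 1 to TG 3. TG 2 was within the CTR range in both. The list median was 0.34 on the log2 scale, 0.12 without TG 3 and 0.61 with a pseudocount of 0.1, and 17 genes had a higher and 5 a lower mean in TG papillomas.

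Among the remaining VEGF ligands, named for their role after their values were seen, *Vegfb* was 1.71 to 4.26 FPKM in CTR papillomas, and 2.95, 1.65 and 3.28 in TG 1 to TG 3. *Pgf*, which binds FLT1, was 0.727 to 4.39 FPKM in CTR papillomas, and 1.71, 2.52 and 0.734 in TG 1 to TG 3. *Vegfc*, the main ligand of FLT4, was 0.184 to 0.407 FPKM in CTR papillomas, and 0.436, 0.331 and 0.821 in TG 1 to TG 3. *Figf* (VEGFD), the other ligand of FLT4, was 1.12 to 2.14 FPKM in CTR papillomas, and 3.74, 3.45 and 1.35 in TG 1 to TG 3. None of these ligands separated the groups.

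The 3 genes of this list with the highest means were *Hif1a*, *Col18a1* and *Thbs1*. *Hif1a*, the oxygen-regulated transcription factor gene, was 32.6 to 82.8 FPKM in CTR papillomas, and 46.2, 67.2 and 88.9 in TG 1 to TG 3 (log2 difference 0.30, adjusted p = 0.928 from limma). *Col18a1*, which gives rise to endostatin, an angiogenesis inhibitor, was 12.2 to 41.7 FPKM in CTR papillomas, and 40.2, 24.2 and 73.0 in TG 1 to TG 3 (log2 difference 0.81, adjusted p = 0.820 from limma). *Thbs1*, another inhibitor, was 7.87 to 27.9 FPKM in CTR papillomas, and 14.2, 22.9 and 43.2 in TG 1 to TG 3 (log2 difference 0.87, adjusted p = 0.813 from limma). In each of the 3, TG 3 was highest and the other TG papillomas were within the CTR range.

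Hypoxia response genes, which like *Vegfa* are known targets of HIF factors, showed no common direction. All 12 were tested, and 0 were higher and 0 lower at an unadjusted p under 0.05, against 4.86% and 1.96% of the tested genes. Of the 12, 6 had a higher and 6 a lower mean in TG papillomas, with a median log2 difference of 0.02. *Ldha*, lactate dehydrogenase, was 579.7 to 942.1 FPKM in CTR papillomas, and 576.3, 533.6 and 735.3 in TG 1 to TG 3 (log2 difference -0.40, adjusted p = 0.830 from limma). *Pgk1*, a glycolytic kinase, had a log2 difference of -0.14, and *Slc2a1*, a glucose transporter, one of 0.09.

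A list of 11 lymphatic markers shares *Sox18* with the vascular markers and *Vegfc*, *Figf* and *Nrp2* with the VEGF list. Of its 6 tested genes, 2 were higher and 0 lower at an unadjusted p under 0.05, against 4.86% and 1.96% of the tested genes. The median log2 difference was 0.29, with 8 higher and 3 lower in the TG mean, and it was 0.07 without TG 3, 0.45 without TG 2 and 0.60 with a pseudocount of 0.1. The 2 higher genes were *Pdpn* and *Sox18*, and other cell types of skin express *Pdpn*. *Pdpn* was 1.10 to 2.72 FPKM in CTR papillomas, and 1.89, 6.19 and 7.31 in TG 1 to TG 3 (log2 difference 1.07, adjusted p = 0.705 from limma). *Sox18* was 1.21 to 3.13 FPKM in CTR papillomas, and 4.07, 2.68 and 3.35 in TG 1 to TG 3 (log2 difference 0.73, adjusted p = 0.705 from limma). *Nrp2*, a co-receptor for VEGFC, was 2.32 to 5.14 FPKM in CTR papillomas, and 3.38, 1.41 and 6.93 in TG 1 to TG 3 (log2 difference -0.19, adjusted p = 0.968 from limma). The 3 genes put the TG papillomas in different orders, and in each at least 1 TG papilloma lay within the CTR range.

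Markers of some other cell types moved with TG 3. The summed FPKM of 6 fibroblast markers was 73.5 to 128.6 in CTR papillomas, 88.9, 86.3 and 677.9 in TG 1 to TG 3. That of 8 skeletal muscle markers was 1.78 to 3.14 in CTR papillomas, 2.34, 4.78 and 595.5 in TG 1 to TG 3. The sum of 9 mural cell markers, for the pericytes and smooth muscle around vessels, was 25.2 to 38.7 in CTR papillomas, 43.4, 30.6 and 94.3 in TG 1 to TG 3. TG 1 was thus within the CTR range for fibroblast and muscle markers and somewhat above it for mural markers.

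For 7 leukocyte and macrophage markers the sum was 28.9 to 39.8 in CTR papillomas, 25.7, 26.8 and 96.3 in TG 1 to TG 3, so TG 1 and TG 2 were below the CTR range. *Csf1r*, the macrophage growth factor receptor gene, was 1.48 to 3.51 FPKM in CTR papillomas, and 3.14, 3.43 and 9.09 in TG 1 to TG 3. Of 5 adipocyte markers, 4 were at 0 in every CTR papilloma, and *Adipoq* reached 3.34 FPKM in TG 3. The other, *Fabp4*, was 1374 to 3228 FPKM in CTR papillomas, and 1545, 2269 and 1680 in TG 1 to TG 3. For 6 keratinocyte markers the sum was 8154 to 11400 in CTR papillomas, 17454, 15221 and 6906 in TG 1 to TG 3. In TG 3, *Krt14*, *Krt1* and *Krt10* were below the CTR range, with *Krt10* at 181.3 FPKM against 917 to 1440 in CTR papillomas. *Krt5* at 1783 and *Epcam* at 49.6 FPKM were above the CTR range in TG 3, and *Trp63* was within it. None of the genes in these lists passed an adjusted p of 0.05. At an unadjusted p under 0.05, *Acta2* (1 of 7 tested mural genes), the fibroblast gene *Pdgfra* (1 of 6) and *Csf1r* (1 of 6 leukocyte genes) were higher in TG papillomas. In the other lists 0 of 7 muscle, 0 of 1 adipocyte and 0 of 6 keratinocyte genes were higher, and 0 were lower in any list. Over all tested genes 4.86% were higher and 1.96% lower. In the CTR papillomas the muscle gene *Ckm* was at most 0.258 FPKM, against 92.5 in TG 3. The part of these cell types in the levels of the 10 genes in TG 3 was not tested.

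The genes of highest mean in these lists did not all follow TG 3. *Notch3*, the mural gene of highest mean, was 11.01 to 18.99 FPKM in CTR papillomas, and 13.2, 14.9 and 20.1 in TG 1 to TG 3. *Acta2*, the next, was 5.46 to 11.9 FPKM in CTR papillomas, and 16.9, 7.65 and 35.9 in TG 1 to TG 3. *Notch3* thus left the CTR range only slightly in TG 3, while *Acta2* did so in TG 1 and TG 3. *Col1a2*, the fibroblast gene of highest mean, was 25.4 to 46.6 FPKM in CTR papillomas, and 34.2, 31.4 and 209.4 in TG 1 to TG 3. *Cd68*, the leukocyte gene of highest mean, was 15.4 to 20.6 FPKM in CTR papillomas, and 15.6, 17.6 and 18.2 in TG 1 to TG 3. *Lyz2*, of myeloid cells, was 4.37 to 18.7 FPKM in CTR papillomas, and 5.24, 2.55 and 54.1 in TG 1 to TG 3. TG 3 was far above the CTR range in *Col1a2* and *Lyz2* and within it in *Cd68*.

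**Figure D5:**
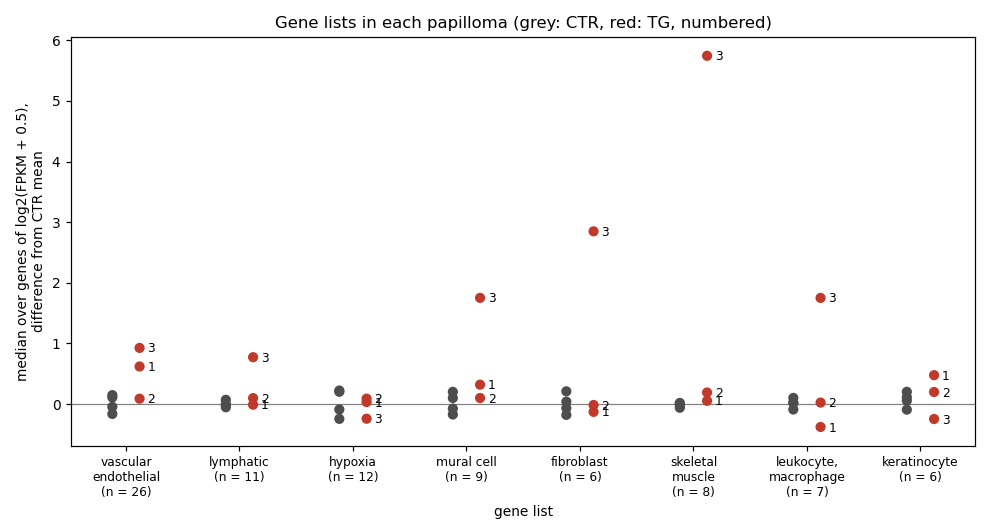
Median log2 difference from the CTR mean over each of 8 gene lists, on the log2(FPKM + 0.5) scale, with a point for each CTR (grey) and TG (red, numbered) papilloma. TG 3 reaches 5.74 for skeletal muscle, 2.85 for fibroblast and 0.93 for vascular endothelial markers, while TG 1 is at 0.06, -0.13 and 0.62.

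Left without TG 3, the log2 differences were 0.56 for *Pecam1*, 0.55 for *Flt1*, 0.78 for *Lyve1*, 0.25 for *Cdh5*, 0.26 for *Kdr*, 0.24 for *Flt4* and -0.26 for *Vegfa*. *Cdh5*, *Kdr*, *Tek*, *Pecam1* and *Flt4* thus moved by more than 1.5 times, and *Flt1*, *Lyve1* and *Vegfa* by less. Without TG 2 the values were 1.10 for *Pecam1*, 1.07 for *Cdh5*, 0.90 for *Kdr*, 0.71 for *Flt1* and 1.21 for *Lyve1*, of which *Cdh5* and *Kdr* moved by more than 1.5 times. *Vegfa* was -0.05 without CTR 1 and -0.53 without CTR 2. None of the 7 tested genes passed an adjusted p of 0.05 with any single papilloma left out.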

How the data were processed

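Papillomas of 4 CTR and 3 TG mice were grouped by their labels, one file for each. Stranded libraries of polyA+ RNA were sequenced as single reads of 40 bases. The authors aligned reads to GRCm38/mm10 with TopHat2 2.0.4, Bowtie 0.12.7 and SAMtools 0.1.16, and deposited FPKM values from Cufflinks 1.3.0, each with an interval and a status. Entries of a symbol were summed, and 162 symbols with a failed estimate were left out. Read numbers were implied by the interval widths, under which 67.0% to 68.5% of values under 50 reads came out whole within 0.05, so depths are approximate. Intervals cover counting error only.

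Values were compared as log2(FPKM + 0.5) with limma 3.58.1 in R 4.3.3, with a variance trend, over genes of mean FPKM of at least 0.5, and by exact permutation in Python 3.11.15. P-values are 2-sided and measure the spread between these papillomas. *Nanog*, with a log2 difference of 3.45 and no overlap between the groups, did not pass the adjusted threshold (adjusted p = 0.400 from limma). Not passing it therefore does not show that a gene was unchanged.

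The genes and lists were chosen with earlier results of these data known. Named beside the 10 were *Nanog*, the 3 genes of highest mean FPKM in each list and the genes most like the endothelial mean (8) or *Vegfa* (5). Values of *Col1a1*, *Col3a1*, *Tnnt3* and *Cidec*, which were also among the 3 of their lists, are not given. Genes counted as called or as not overlapping, and further VEGF ligands and keratinocyte markers, were named after their values were seen. Another 16 settings changed the pseudocount, filter, scaling, variance model, weights and papillomas, and 1 more, the papillomas of lower depth, was chosen after seeing the data. Promoters are from RefSeq (GRCm38.p6) and loci from the files, 1-based.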

Additional observations from a re-analysis of the deposited data

Results flagged for a closer look

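In 6 of the 41 genes examined, 1 CTR papilloma lay far from the other CTR papillomas, by the size of its gap to the nearest relative to the range of the group. Chance flags about 1 in 20 such groups. *Prox1* was 0.0197 FPKM in CTR 3 and 0 in the other CTR papillomas, which is 2 implied reads. CTR 3 also had the highest CTR value of *Nanog*, at 12.7 FPKM against 2.70 to 3.34, and of *Acta1*, at 0.409 FPKM against 0.162 to 0.197, and the lowest of *Pgk1*, at 229.7 FPKM against 281.7 to 285.1. *Krt5* was lowest in CTR 1, at 941.5 FPKM against 1630 to 1730, and *Tagln* was highest in CTR 4, at 7.32 FPKM against 4.22 to 4.65. Of the 10 endothelial and angiogenic genes, only *Prox1* was among the 6.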

How the results depend on the processing

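*Pecam1*, *Cdh5*, *Kdr*, *Flt1* and *Lyve1* kept a higher and *Vegfa* a lower mean in TG papillomas under all 17 alternatives, and none of the 10 genes passed an adjusted p of 0.05 under any alternative that tested it. *Angpt2*, at 0.11, turned to -0.068 under quantile normalization, to -0.27 with a quality weight for each papilloma, to -0.27 in the papillomas of lower depth, and ranged from -0.11 (without CTR 3) to 0.39 with 1 papilloma left out, being -0.05 without TG 1 and -0.00457 without TG 3. The cause was not tested. *Tek*, *Flt4* and *Prox1* have no value under quantile normalization, which was run on tested genes. Quality weights brought *Pecam1* to 0.47, *Lyve1* to 0.51, *Cdh5* to 0.04 and *Kdr* to 0.03.

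Of the tested genes, 598 were higher and 241 lower in TG papillomas at an unadjusted p under 0.05. Without a filter 954 of 19124 genes were higher. Upper-quartile scaling gave 515 and 418, and quantile normalization 403 and 551. Quality weights gave 1161 and 1248, and 49 and 36 at an adjusted p, the latter including *Cd34* (-1.19, adjusted p = 0.0356 from limma). The 3 of the 10 genes and 8 vascular markers higher at an unadjusted p became 1 and 4 with a filter at 2 FPKM. That filter left 9490 genes, with 3 of the 10 among them, and 424 were higher. The counts were 0 and 2 with quality weights, and 0 and 1 in the papillomas of lower depth. In the latter 452 of 12299 genes were higher, and 1 gene, *Nanog*, passed the adjusted p. Quantile normalization left 5 vascular markers. With 1 papilloma left out, 364 to 825 genes were higher and 122 to 539 lower, with 0 to 2 and 0 to 1 at an adjusted p (*Nanog*, *Hand1* and *Slc5a8*, or *Ivl* higher, *Krt4* lower). The 10 genes then gave 2 to 5 and the vascular markers 2 to 18. Both were highest without TG 2, at 5 and 18, where 596 of 12299 genes were higher. There were 2 vascular markers without CTR 3, TG 1 or TG 3, 3 without CTR 1 and 5 without CTR 4.

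The labels share replicate numbers, but deviations from the group means correlated at -0.19, 0.04 and -0.15 for same-numbered papillomas, so the numbers were not taken as pairs. With the replicate number as a block, in which CTR 4 has no partner, 0 genes passed in each direction at an adjusted p, and 505 were higher and 170 lower at an unadjusted p, with 2 of the 10 genes and 6 vascular markers. The log2 differences under the block were 0.97 for *Pecam1*, 0.80 for *Cdh5*, 0.69 for *Kdr*, 0.70 for *Flt1*, -0.21 for *Vegfa*, 0.20 for *Angpt2* and 1.10 for *Lyve1*. Low levels of *Tek*, *Flt4*, *Prox1* and *Lyve1* limit what this depth can resolve.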
